A study of Mus musculus with 6 samples.

Results

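Cholesterol and fatty acid synthesis were examined in mouse bone marrow through 29 genes, found by symbol from a list of known enzymes and regulators. The sterol branch holds 19 of them, 16 enzymes and 3 genes of sterol control, and the fatty acid branch holds 10, 9 enzymes and 1 regulator. All 29 were present among the 56496 genes of the deposited table. RNA-seq covered bone marrow cells in 2 groups, 3 Onway libraries (Onway 1, Onway 2 and Onway 3) and 3 Control libraries (Control 4, Control 5 and Control 6). The mice were female Balbc animals with 4T1, a mouse mammary carcinoma line, and the tumour had been resected. Onway mice were then gavaged with Onway over 2 weeks, and Control mice were not given it. The labels mark the Onway libraries Day14 and the Control libraries Day 0, and treatment cannot be told apart from the labelled day. What Onway contains, the age of the mice, and whether 1 mouse or a pool gave a library are not stated in those sources. P-values therefore measure the spread between these libraries, which may be technical.

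Values are TPM, a level per transcript length scaled to a fixed total in each library, summed over the transcripts of a gene. Since TPM carries no depth, how many reads stand behind a value is unknown, and no counting interval can be given. The number of genes at 1 TPM or more was 13354 to 14252 per library. Haemoglobin genes took 13.3%, 9.38% and 33.9% of the TPM in Onway 1, Onway 2 and Onway 3, and 26.6%, 11.6% and 18.3% in Control 4, Control 5 and Control 6. A large haemoglobin share lowers the TPM of every other gene in that library, so levels are also given on a scale from which the haemoglobin genes were left out. The tissue label matched the abundant erythroid and neutrophil markers, which summed to at least 95753 TPM and 97107 TPM in each library.

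Cholesterol is built from acetyl-CoA by way of mevalonate, the isoprenoid farnesyl diphosphate, squalene and lanosterol. Fatty acids are built from the same acetyl-CoA, which ATP citrate lyase releases in the cytosol, and are then elongated and desaturated. Both branches are known targets of the SREBP transcription factors, encoded by Srebf2 for mainly the sterol genes and Srebf1 for mainly the fatty acid genes. When sterols are plentiful, INSIG proteins hold the SREBP escort protein SCAP in the endoplasmic reticulum, and when sterols are scarce SREBP is cleaved and enters the nucleus. Dividing blood progenitors need both products for new membrane.

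Most genes of the sterol branch had a lower estimate in Onway than in Control marrow, but no gene of either branch passed the test. The log2 fold change, Onway minus Control on the log2(TPM + 1) scale, was negative for 17 of the 19 sterol genes and for 7 of the 10 fatty acid genes, where 46.4% of all 14192 tested genes were negative. Its median was −0.32 over the sterol genes, a fold of 0.80, and −0.11 over the fatty acid genes, against 0.03 over all tested genes. Without Onway 3 the fatty acid median was 0.01 and the sterol median −0.20, against 0.11 over all tested genes. In limma with Benjamini-Hochberg adjustment over all tested genes, 0 of the 29 genes passed an adjusted p of 0.05, and the smallest adjusted p was 0.211, for Scd2. At that threshold 2.99% of all tested genes were called lower and 0.233% higher in Onway. At an unadjusted p under 0.05 stood 4 of the 29 genes (Scd2, Fdps, Fads2 and Stard4), all with a negative fold change, against 13.4% of all tested genes, and limma without trend and robust moderation gave 3. The genes share libraries and are not independent of each other, so these counts describe the list. Leaving out 1 library moved the log2 fold change of 26 of the 29 genes by over 1.5 times or past 0, and those of Mvk, Fdps and Scd2 by less.

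**Figure D1:**
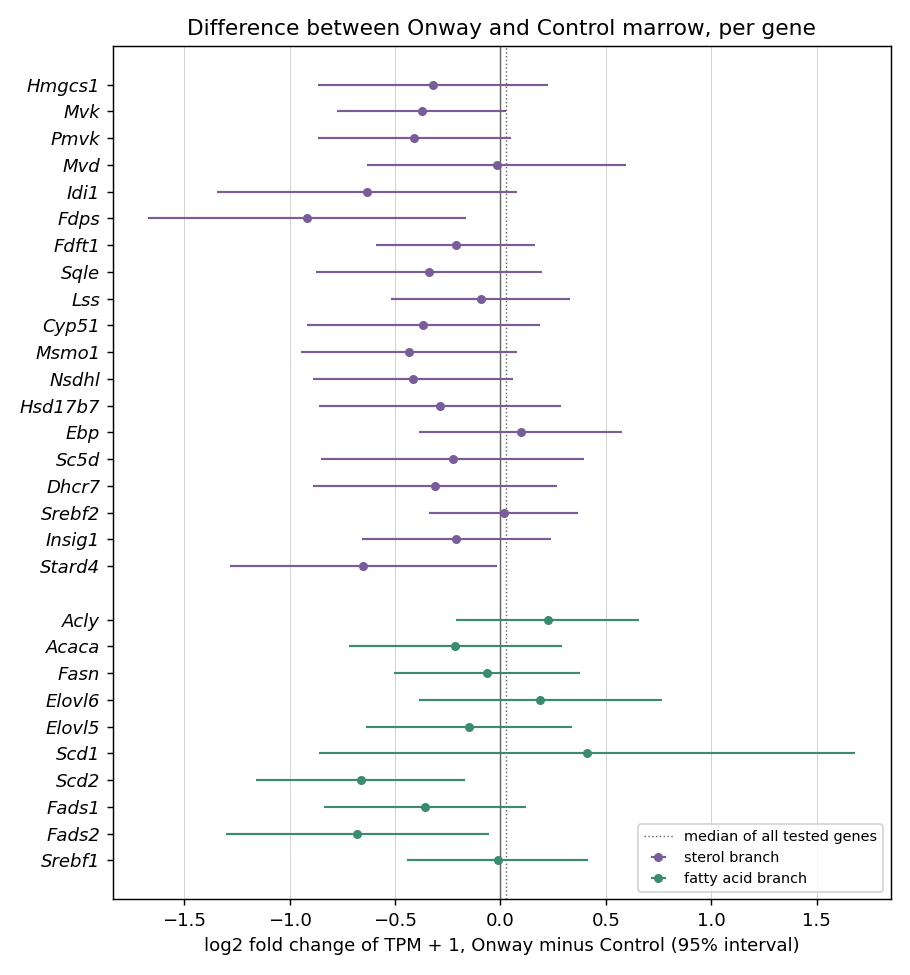
The log2 fold change of TPM + 1 (Onway minus Control, horizontal axis) is plotted for each of the 29 genes with its 95% interval from limma, the sterol branch above the fatty acid branch, and a dotted line at the median of all tested genes. The points of 17 of 19 sterol genes lie left of 0, and the intervals of 4 genes (Fdps, Stard4, Scd2 and Fads2) do not reach 0.

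Summed over the 19 genes, the sterol branch stood at 268, 287 and 187 TPM in Onway 1, Onway 2 and Onway 3, and at 300.4, 391 and 286 TPM in Control 4, Control 5 and Control 6. The groups overlapped only in that Onway 2 lay just above Control 6. With haemoglobin left out of the scale, the sums were 310, 317 and 283 TPM in Onway and 409, 442 and 349.7 TPM in Control, without overlap. The mean was 303 ± 18.0 TPM in Onway and 400.3 ± 46.9 TPM in Control (SD, n = 3 each), a fold of 0.757, close to the 0.760 of the values as deposited. Fdps, the most abundant sterol gene, made up 17.9% of the mean sum in Onway and 26.1% in Control as deposited, and without it the fold of the sum was 0.844. With haemoglobin left out, Fdps stood at 62.3, 54.8 and 43.9 TPM in Onway and 83.9, 135.4 and 89.8 TPM in Control. The sum without Fdps on that scale was slightly higher in Onway 2 than in Control 6, so the lack of overlap rested on Fdps.

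The 10 genes of the fatty acid branch summed to 197, 206 and 163 TPM in Onway and to 228, 205 and 187 TPM in Control, a fold of 0.914 with overlap, and the difference between the branches was not tested. On the scale without haemoglobin the sums were 227, 227 and 247 TPM in Onway and 310.0, 232 and 229 TPM in Control. Control 4 alone stood high there, and the other 5 libraries lay between 227 and 247 TPM. Together the 29 genes made up 0.0350% to 0.0493% of the TPM in Onway libraries and 0.0473% to 0.0596% in Control libraries.

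**Figure D2:**
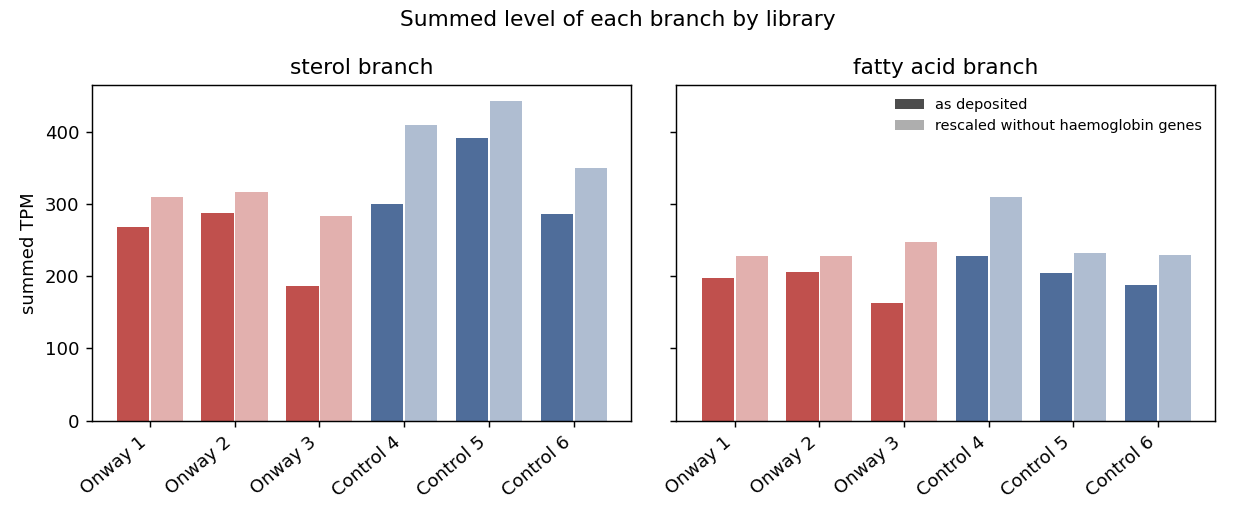
Bars show the summed TPM of the 19 sterol genes (left panel) and the 10 fatty acid genes (right panel) in each Onway and Control library, in solid colour as deposited and in pale colour rescaled without haemoglobin genes. The pale sterol bars reach at most 317 TPM in Onway and at least 349.7 TPM in Control, while the pale fatty acid bars of 5 libraries are nearly level and that of Control 4 is the tallest.

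In 23 of the 29 genes the lowest of the 6 values as deposited was that of Onway 3, the library with the largest haemoglobin share, and in 17 of those the gene belonged to the sterol branch. Without haemoglobin in the scale, Onway 3 was lowest for 13 of 29. Control 5 held the highest value for 14 genes, 12 of them sterol genes. All 3 Onway values lay below all 3 Control values for 8 of the 29 genes as deposited (Mvk, Pmvk, Fdps, Fdft1, Msmo1, Scd2, Fads1 and Fads2) and above them for 0, where 11.5% of all tested genes had no overlap with Onway lower and 6.95% with Onway higher. Leaving out 1 library moved the 8 to 13 without Onway 2 and to 16 without Control 6, where fewer libraries have to separate and 22.2% and 14.8% of all tested genes were lower without overlap. On the scale without haemoglobin the Onway values lay below for 11 of 29, of which 9 were sterol genes (Hmgcs1, Mvk, Pmvk, Fdps, Fdft1, Msmo1, Nsdhl, Hsd17b7 and Stard4) and 2 were Scd2 and Elovl5. For Hsd17b7 and Elovl5 the groups nearly touched. Only Acly lay above on that scale. There 12% of 14764 tested genes were lower and 9.58% higher without overlap. Bulk TPM cannot tell fewer cells that express a gene from less of its RNA per cell.

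**Figure D3:**
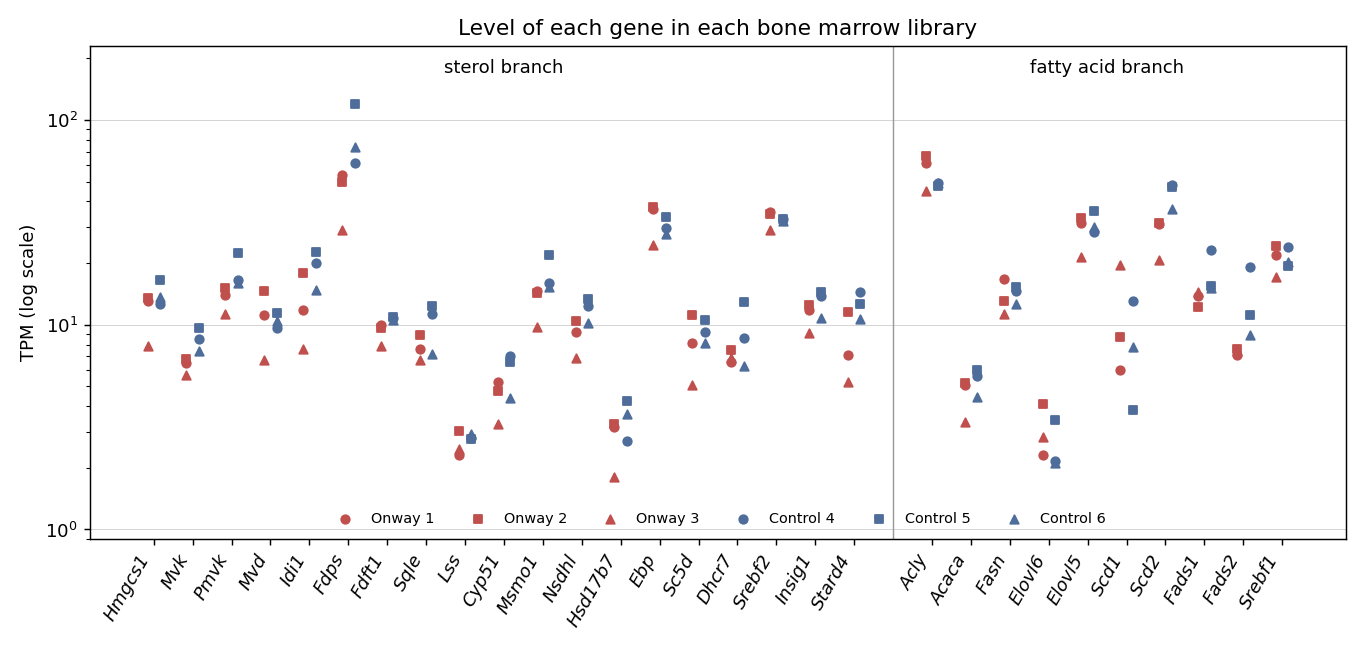
The level of each of the 29 genes in each library is plotted as TPM on a log axis, with Onway libraries in red left of Control libraries in blue and 1 marker shape per library. Levels span from Hsd17b7 at 1.80 TPM in Onway 3 to Fdps at 119.6 TPM in Control 5, and the red triangles of Onway 3 lie lowest for 23 genes.

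Promoter windows of 3 genes are shown because they span what was found across the list, from both motifs searched to neither. Windows of 300 bases, 250 before and 50 after a transcription start, came from RefSeq on GRCm38.p6 and were at hand for 22 of the 29 genes. Fdps, Fdft1, Sqle, Stard4, Scd1, Scd2 and Fads1 had no window, so the motif counts leave them out. Both strands were searched for TCACNCCAC, the core of a sterol regulatory element, and for CCAAT, the box bound by NF-Y, and no match of one overlapped a match of the other in the windows shown. The sterol core was found in 1 of the 22 genes, Hmgcs1, at −137 from the start, and in 1.44% of 27025 genes in the promoter set. CCAAT was found in 15 of 15 sterol genes and in 4 of 7 fatty acid genes, against 41.1% of all genes. Several genes have more than 1 window, and some of these matches lie away from the starts in use. In windows near which at least 50% of the gene's TPM started, CCAAT was found in 13 of 14 sterol genes, all but Pmvk, and in 2 of 6 fatty acid genes. A start counted as near up to 250 bases outside a window. The main transcript of Pmvk starts at 89459118, ahead of its window (chr3:89459321-89459620, plus strand), so sequence before that start was not searched there. No share over all genes was computed for windows chosen in this way. Capitals mark every match, and ATTGG is CCAAT read on the other strand. The window of Hmgcs1 (chr13:119690101-119690400, plus strand) holds the sterol core and 4 CCAAT boxes. The window of Mvk (chr5:114444019-114444318, plus strand) holds 5 CCAAT boxes, and that of Fads2 (chr19:10101454-10101753, minus strand) holds neither motif. The main transcript of Fads2 starts at 10101746, close to the upstream end of its window, so hardly any sequence ahead of that start was searched. The lack of CCAAT in Fads2, also in the counts above, carries that limit.
Hmgcs1: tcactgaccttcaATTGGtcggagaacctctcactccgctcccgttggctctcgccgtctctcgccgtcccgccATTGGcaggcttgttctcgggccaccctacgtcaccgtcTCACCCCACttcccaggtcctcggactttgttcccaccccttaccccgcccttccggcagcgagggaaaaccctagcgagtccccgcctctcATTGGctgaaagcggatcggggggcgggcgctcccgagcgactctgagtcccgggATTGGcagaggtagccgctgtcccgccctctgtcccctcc
Mvk: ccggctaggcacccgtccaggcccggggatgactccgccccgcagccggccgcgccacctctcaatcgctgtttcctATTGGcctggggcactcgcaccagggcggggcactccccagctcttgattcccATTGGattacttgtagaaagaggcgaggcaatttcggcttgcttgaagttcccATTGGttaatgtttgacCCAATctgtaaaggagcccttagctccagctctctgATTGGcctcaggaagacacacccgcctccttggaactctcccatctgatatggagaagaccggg
Fads2: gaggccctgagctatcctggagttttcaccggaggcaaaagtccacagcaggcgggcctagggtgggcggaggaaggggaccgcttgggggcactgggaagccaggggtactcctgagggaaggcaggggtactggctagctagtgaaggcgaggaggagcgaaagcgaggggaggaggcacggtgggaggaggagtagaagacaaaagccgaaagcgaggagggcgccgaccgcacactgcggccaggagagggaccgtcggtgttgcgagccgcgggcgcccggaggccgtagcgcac
A match is a description of letters in these windows.

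The mevalonate steps were led by Fdps. It encodes farnesyl diphosphate synthase (ENSMUSG00000059743, chr3:89093588-89101959 on the minus strand, GENCODE M21 on GRCm38), whose product feeds sterols, prenylated proteins and other isoprenoids. Fdps stood at 54.0, 49.6 and 29 TPM in Onway and at 61.6, 119.6 and 73.4 TPM in Control. Every Onway value was below every Control value, with Control 5 far above the rest. Its log2 fold change was the lowest of the 29 at −0.92 (SE 0.32, 95% interval −1.67 to −0.16), a fold of 0.530, with a Benjamini-Hochberg adjusted p of 0.265 in limma. One protein-coding transcript carried 94.0% of its TPM. A gene on the same strand that overlaps Fdps, Gm43738, averaged 2.13 TPM.

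Idi1, the isomerase of isopentenyl diphosphate just before Fdps, had 11.8, 17.9 and 7.65 TPM in Onway and 20.1, 22.6 and 14.7 TPM in Control. The groups overlapped through Onway 2, and the log2 fold change was −0.63 (SE 0.31, adjusted p = 0.434 in limma), and −0.35 without Onway 3. Mvk, mevalonate kinase, had 6.50, 6.80 and 5.71 TPM in Onway and 8.49, 9.62 and 7.48 TPM in Control. Its groups did not overlap on either scale, at a log2 fold change of −0.37 (SE 0.17). Pmvk, which adds the next phosphate, had 14, 15.1 and 11.3 TPM in Onway and 16.5, 22.3 and 16.0 TPM in Control. These too did not overlap, with a log2 fold change of −0.41 (SE 0.20).

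Hmgcs1, the cytosolic HMG-CoA synthase at the head of the pathway, had 13.0, 13.5 and 7.85 TPM in Onway and 12.6, 16.6 and 13.6 TPM in Control. These values overlapped. Rescaled without haemoglobin they were 15.0, 14.9 and 11.9 TPM in Onway and 17.2, 18.7 and 16.7 TPM in Control, and no longer overlapped. Mvd, the decarboxylase between Pmvk and Idi1, stood apart from its neighbours. It had 11.1, 14.6 and 6.74 TPM in Onway and 9.61, 11.4 and 10.4 TPM in Control, so that the Onway libraries spanned both ends of the range. Its log2 fold change was −0.02 (SE 0.26), and 0.26 without Onway 3.

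The next enzymes lead from farnesyl diphosphate to lanosterol. Fdft1, squalene synthase, had 10.0, 9.63 and 7.90 TPM in Onway and 10.8, 10.8 and 10.6 TPM in Control. The Control libraries were nearly level and all above Onway, at a log2 fold change of −0.21 (SE 0.16). On the opposite strand Fdft1 overlaps Ctsb, which averaged 184 TPM, and since the strand setting is not given, reads from the overlap cannot be assigned with certainty. Sqle, squalene epoxidase, had 7.62, 8.94 and 6.73 TPM in Onway and 11.2, 12.3 and 7.18 TPM in Control, with overlap through Control 6 and a log2 fold change of −0.34 (SE 0.23). Lss, which closes the lanosterol rings, was among the least abundant genes, at 2.30, 3.03 and 2.47 TPM in Onway and 2.79, 2.76 and 2.94 TPM in Control.

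Among the enzymes that turn lanosterol into cholesterol, Msmo1, which takes part in removing the methyl groups at carbon 4, had 14.6, 14.2 and 9.77 TPM in Onway and 15.9, 21.8 and 15.2 TPM in Control. Its groups did not overlap, and the log2 fold change was −0.43 (SE 0.22, limma adjusted p = 0.461), and −0.26 without Onway 3. Nsdhl, of the same demethylation, had 9.20, 10.4 and 6.84 TPM in Onway and 12.4, 13.4 and 10.2 TPM in Control. Onway 2 reached just above Control 6 there, and the log2 fold change was −0.41 (SE 0.20). Hsd17b7, the ketoreductase of that step, had 3.18, 3.26 and 1.80 TPM in Onway and 2.71, 4.26 and 3.65 TPM in Control. Its order changed with the scale, since without haemoglobin no Onway value reached a Control value. The gap there was narrow, with Onway 1 at 3.67 TPM and Control 4 at 3.69 TPM.

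Cyp51, lanosterol demethylase, had 5.26, 4.74 and 3.27 TPM in Onway and 7, 6.58 and 4.41 TPM in Control, overlapping at Control 6. Akap9, on the opposite strand of Cyp51, averaged 7.08 TPM. Ebp, the sterol isomerase, was one of the 2 sterol genes with a positive estimate, at 36.9, 37.8 and 24.4 TPM in Onway and 29.8, 33.5 and 27.8 TPM in Control. Its log2 fold change was 0.10 (SE 0.21), with Onway 3 at the low end and the other Onway libraries at the high end. A transcript annotated as retaining an intron held 37.1% of the TPM of Ebp, with a mean of 14.2 TPM in Onway and 9.35 TPM in Control. The main protein-coding transcript, with 56.7%, was lower in Onway, at a mean of 16.75 TPM against 19.2 TPM in Control, with overlap. Sc5d, the sterol desaturase, had 8.11, 11.1 and 5.07 TPM in Onway and 9.23, 10.49 and 8.15 TPM in Control. Like the sum of Ebp, that of Sc5d had its highest and its lowest value in Onway.

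Dhcr7, which makes cholesterol from 7-dehydrocholesterol, had 6.57, 7.53 and 6.90 TPM in Onway and 8.60, 12.8 and 6.32 TPM in Control. Control 6 was the lowest of the 6 libraries and Control 5 the highest. The gene shows how its sum depends on the assembled transcripts, whose identifiers start with MSTRG. Its main Ensembl transcript, with 63.5% of the TPM, was listed at 0 in Onway 2, where an assembled transcript of nearly equal length held 7.22 TPM. Counted over Ensembl transcripts alone, the log2 fold change of Dhcr7 was −1.15 rather than −0.31, and that larger value rests on this split. Without Control 5 the value over all transcripts was −0.07. Over the 29 genes, 19 of 174 transcripts were assembled ones and held 9.32% of the TPM.

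The sterol control genes differed from each other. Srebf2, the transcription factor of the sterol genes, had 35.4, 34.8 and 29.2 TPM in Onway and 32.8, 32.9 and 32.2 TPM in Control. The Control libraries were nearly identical and the Onway values lay on both sides of them, at a log2 fold change of 0.02 (SE 0.15, 95% interval −0.34 to 0.37). Insig1, the retention protein and itself an SREBP target, had 11.8, 12.4 and 9.07 TPM in Onway and 13.8, 14.4 and 10.8 TPM in Control. These overlapped at Control 6, with a log2 fold change of −0.21 (SE 0.19). Stard4, a cytosolic sterol carrier, had 7.09, 11.6 and 5.26 TPM in Onway and 14.4, 12.7 and 10.7 TPM in Control. Only Onway 2 reached into the Control range, and the log2 fold change was −0.65 (SE 0.27, limma adjusted p = 0.358), and −0.42 without Onway 3. RNA of Srebf2 says nothing of the cleavage that activates its protein.

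The early fatty acid steps showed little difference. Acly, ATP citrate lyase and the most abundant fatty acid gene, had 62.0, 66.4 and 45.0 TPM in Onway and 49.1, 47.6 and 49.5 TPM in Control. Onway 1 and Onway 2 were above and Onway 3 below the tight Control values, at a log2 fold change of 0.22 (SE 0.19, limma adjusted p = 0.684). Without haemoglobin Acly stood at 71.5, 73.3 and 68.1 TPM in Onway and 66.8, 53.8 and 60.5 TPM in Control, higher in Onway without overlap. Acaca, acetyl-CoA carboxylase, had 5.05, 5.20 and 3.33 TPM in Onway and 5.64, 6.04 and 4.42 TPM in Control. Fasn, fatty acid synthase, had 16.8, 13.0 and 11.3 TPM in Onway and 14.7, 15.3 and 12.7 TPM in Control. Both overlapped, with log2 fold changes of −0.21 (SE 0.22) and −0.06 (SE 0.19). The main protein-coding transcript of Fasn held 38.6% of its TPM, at 7.12, 5.01 and 3.82 TPM in Onway and 5.65, 5.39 and 5.34 TPM in Control. Short transcripts annotated as retaining an intron held 36.7% and 18.7%.

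The elongases overlapped as deposited. Elovl5, which lengthens polyunsaturated fatty acids, had 31.3, 33.4 and 21.4 TPM in Onway and 28.5, 36.0 and 30.1 TPM in Control. Elovl6, which lengthens palmitate, was low, at 2.32, 4.08 and 2.83 TPM in Onway and 2.15, 3.44 and 2.12 TPM in Control, with a log2 fold change of 0.19 (SE 0.25). Neither gene separated the groups on that scale. Without haemoglobin Elovl5 separated them narrowly, with Onway 2 at 36.81 TPM and Control 6 at 36.85 TPM.

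The desaturases held the largest estimates of the fatty acid branch, and Scd1 and Scd2 differed in sign. Scd2 (ENSMUSG00000025203, chr19:44293674-44306864 on the plus strand), a stearoyl-CoA desaturase that makes monounsaturated fatty acids, had 30.9, 31.3 and 20.8 TPM in Onway and 48.2, 47.0 and 36.7 TPM in Control. The groups did not overlap, also without haemoglobin, where Scd2 stood at 35.7, 34.5 and 31.4 TPM in Onway and 65.6, 53.2 and 44.9 TPM in Control. Its log2 fold change was −0.66 (SE 0.21, 95% interval −1.16 to −0.17), with limma adjusted p = 0.211, lower in 3 of 3 Onway libraries. Over 14 alternatives its adjusted p did not pass the threshold either, and its log2 fold change ran from −0.79 to −0.38. Scd1, its close copy, had 5.99, 8.70 and 19.6 TPM in Onway and 13.0, 3.84 and 7.75 TPM in Control. The highest values were those of Onway 3 and Control 4, the libraries with the most haemoglobin, and that link was not tested. The log2 fold change of Scd1 was 0.41 (SE 0.53), and −0.03 without Onway 3. The 2 genes are similar in sequence and the counting is not described, so reads could have been divided between them. In both, an assembled transcript was the most abundant one, with 51.1% of the TPM of Scd1 and 56.2% of that of Scd2.

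Fads2 (ENSMUSG00000024665, chr19:10062765-10101746 on the minus strand), the first desaturase on the way to long polyunsaturated fatty acids, had 7.09, 7.62 and 7.45 TPM in Onway and 19.1, 11.1 and 8.88 TPM in Control. The Onway libraries were nearly level, and the Control libraries spread widely above them. The log2 fold change was −0.68 (SE 0.27, 95% interval −1.30 to −0.06), with limma adjusted p = 0.321, and −0.39 without Control 4. Without haemoglobin the groups overlapped, at 8.18, 8.41 and 11.3 TPM in Onway and 26.0, 12.6 and 10.9 TPM in Control. Fads1, its neighbour on chromosome 19 and the next desaturase, had 13.9, 12.2 and 14.5 TPM in Onway and 23.3, 15.4 and 15.0 TPM in Control. Its groups did not overlap as deposited, with Control 4 the highest library, at a log2 fold change of −0.36 (SE 0.21). Without haemoglobin they did, at 16.0, 13.4 and 21.9 TPM in Onway and 31.7, 17.4 and 18.4 TPM in Control.

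**Figure D4:**
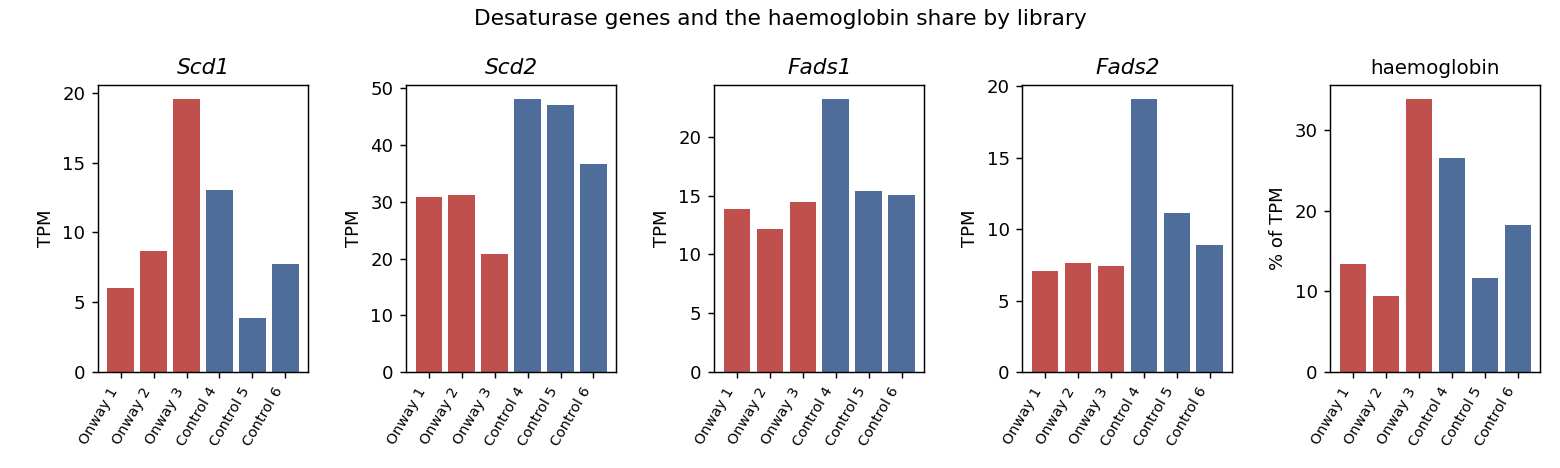
Bars show the TPM of Scd1, Scd2, Fads1 and Fads2 and, in the last panel, the haemoglobin genes in % of TPM, for each Onway and Control library. Scd2 is lower in each Onway library than in each Control library, Fads2 is nearly level in Onway, and Scd1 peaks at 19.6 TPM in Onway 3, the library with 33.9% haemoglobin.

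Srebf1, the regulator of the fatty acid genes, had 21.9, 24.1 and 17.2 TPM in Onway and 24.1, 19.3 and 20.2 TPM in Control, a log2 fold change of −0.01 (SE 0.18). The gene has several starts. One protein-coding transcript carried 56.2% of its TPM, at 12.8, 12.1 and 10.2 TPM in Onway and 13.0, 12.2 and 10.96 TPM in Control, and starts near the RefSeq window chr11:60220578-60220877 on the minus strand. Annotated transcripts that start near the downstream window, chr11:60210422-60210721, were listed at 0 in all 6 libraries. The start of an assembled transcript with 13.0% of the TPM of Srebf1 is not given, so whether it lies there is unknown. Rai1, on the opposite strand of Srebf1, averaged 14.7 TPM.

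Genes around the 29 were read from the same limma fit, and 0 of 61 tested ones in 4 lists passed the threshold in either direction. In a list of 12 further sterol genes 9 had a negative fold change, with a median of −0.17. Syvn1, a ubiquitin ligase of the endoplasmic reticulum, had 27.7, 43.2 and 33.2 TPM in Onway and 24.5, 17.7 and 19 TPM in Control, a log2 fold change of 0.73 (SE 0.21) at an adjusted p of 0.170.

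In the list of sterol uptake, storage and export, 13 of 14 genes were tested and 5 were negative, with a median of 0.18. Nr1h3, the sterol sensor LXR alpha, had 0.270, 0.570 and 0.660 TPM in Onway and 2.89, 1.30 and 1.63 TPM in Control, with an adjusted p of 0.168. Stard3, a sterol carrier of late endosomes, had 32.6, 31.6 and 22.4 TPM in Onway and 21.3, 25.1 and 24.0 TPM in Control, with overlap and an adjusted p of 0.604. Of 23 further fatty acid genes 20 were tested, and 13 were negative, with a median of −0.11. Thrsp, a lipogenic nuclear protein, had 0.210, 0.290 and 0.670 TPM in Onway and 2.13, 0.970 and 4.77 TPM in Control, at an adjusted p of 0.204, which came to 0.0448 without Control 5. Gpam, the first acyltransferase of triglyceride synthesis, had 5.77, 12.5 and 10.2 TPM in Onway and 5.88, 5.86 and 4.29 TPM in Control, at an adjusted p of 0.350.

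The reverse pathway, fatty acid oxidation, had 14 of 16 genes with a negative fold change and a median of −0.27, near the sterol branch. Etfb, which passes electrons from that oxidation, had 158, 167 and 121 TPM in Onway and 189, 264 and 235 TPM in Control (log2 fold change −0.62, SE 0.21, adjusted p = 0.237). Acaa2, the mitochondrial thiolase, had 23.2, 25.1 and 22.5 TPM in Onway and 30.6, 35.4 and 31.3 TPM in Control (log2 fold change −0.44, SE 0.15, adjusted p = 0.242). Neither gene overlapped between the groups. No test set these 4 lists against the 29 genes.

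Markers of 3 other cell types and tissues separated the groups much further than the lipid genes. Of 8 megakaryocyte markers, 8 were called lower in Onway (among them Pf4, Gp5, Treml1, Gp1bb, Ppbp, Gp9 and Itga2b), with log2 fold changes of −5.06 to −2.54. Their sum was 94.4 to 151 TPM in Onway and 1929 to 2181 TPM in Control. Of 9 tested stroma and bone markers, 8 were called lower (Dcn, Spp1, Ibsp, Cxcl12, Lepr, Sparc, Col1a2 and Bglap), and all 9 were negative. The list summed to 38.7 to 60.4 TPM in Onway and 626 to 1516 TPM in Control. Of 9 skeletal muscle markers, 8 were called lower (Acta1, Pvalb, Myl1, Tnnc2, Ckm, Tnnt3, Atp2a1 and Mylpf), and all 9 were negative. The list summed to 13.2 to 18.4 TPM in Onway and 648 to 4188 TPM in Control. Over the 14 alternatives the megakaryocyte calls numbered 8 in each, the stroma and bone calls 4 to 9 and the muscle calls 0 to 9, the lowest counts without Control 4 and Onway 3 together. The part of these cells and tissues in the lower sterol and Scd2 values was not tested.

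Other lists changed less. Of 9 macrophage markers 1 was called lower, Vcam1 (log2 fold change −1.30, SE 0.19, limma adjusted p = 0.0090, 0.00565 to 0.0634 over the alternatives). The median of the list was −1.12, with 7 of 9 negative and Csf1r (0.52) and Adgre1 (0.17) positive. At an unadjusted limma p under 0.05 stood 7 of 9, against 13.4% of all tested genes. The calls numbered 0 to 6 over the alternatives, with 6 without Control 5 and 0 without Onway 2. The list summed to 185 to 219.99 TPM in Onway and 259 to 401 TPM in Control. Of the 8 adipocyte markers 4 were tested and 0 passed, with Fabp4 (limma adjusted p = 0.0526) and Adipoq (limma adjusted p = 0.0631) the smallest. Over the alternatives these ran from 0.0167 to 0.180 for Fabp4 and from 0.0196 to 0.207 for Adipoq, so some passed. Lpl, with 0.0181 to 0.419, passed in some too. The 4 tested markers were all negative, with a median of −1.68, and all stood at an unadjusted limma p under 0.05. The 8 markers summed to 14.5 to 30.2 TPM in Onway and 51.2 to 108 TPM in Control, with Cidec and Lep at 0 in each Onway library and Plin1 at no more than 0.290 TPM in any library. The labels' extraction text opens with a culture recipe of dexamethasone, isobutylmethylxanthine and insulin, a mix commonly used to make adipocytes, and does not say which cells it was used on. Proliferation markers summed to 1817 to 1883 TPM in Onway and 1607 to 2261 TPM in Control, with 0 of 12 called and Ccnb1 (−0.21) and Mki67 (0.20) the smallest p. Erythroid markers (0 of 12, smallest p for Epor and Car1), neutrophil markers (0 of 10, Elane and Mpo) and B cell markers (0 of 10, Pax5 and Cd79a) gave no call. B cell markers summed to 242 to 721 TPM in Onway and 178 to 318 TPM in Control.

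The authors' deposited table also gives a mean per group, and these means are not those of the 3 libraries. Taken as means of 4 values, they leave for each group a further total of 1e+06 TPM, the size of a library, which was not analysed here as one and entered no test. The value left over in the authors' deposited table was lower in Onway than in Control for 15 of 19 sterol genes and 7 of 10 fatty acid genes, against 43.1% of all tested genes. For Scd2 it was 20.6 TPM in Onway and 51.8 TPM in Control, for Fads2 7.08 and 13.2 TPM, and for Fdps 42.3 and 60.6 TPM. The sterol sum left over was 244 TPM in Onway and 280 TPM in Control, and the fatty acid sum 163 TPM in Onway and 227 TPM in Control. By these left-over sums the fatty acid branch was the further apart of the 2, the reverse of the order in the 3 libraries. For the megakaryocyte, stroma and bone, and muscle lists the same arithmetic left 1126, 93.2 and 13.8 TPM in Onway and 939, 99 and 20.1 TPM in Control, without the gap of the 3 libraries.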

How the data were processed

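The authors deposited 1 table of TPM, scaled within each library to a fixed total, for 158850 transcripts of 6 libraries. Per the labels' protocols, RNA came from an RNeasy kit and sequencing libraries from a SMARTer mRNA kit. The submitters' processing notes name GRCm38 and mm10, and name no aligner or quantifier. Onway columns carry another prefix and were matched to the titles by number. TPM was summed to genes, and the 14192 genes averaging 1 TPM or more were tested as log2(TPM + 1), which understates changes of low genes, with limma 3.58.1 in R 4.3.3 (trend and robust moderation, no covariate, two-sided, Benjamini-Hochberg over all tested genes, threshold 0.05). Precision is limited by 3 libraries per group, and depth is unknown. Gene positions are from GENCODE M21. Library numbers are not shared between groups, so no pairing was used. The rule for the 29 genes uses symbols and no measured value, but they and the other lists were chosen with earlier results of these data known. The text names all 29 genes and, from each other list, every gene past the threshold or else the 2 with the smallest p, except that some results are not reported here. Alternatives were another pseudocount, filter, scaling, transcript set and moderation, and libraries left out.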

Additional observations from a re-analysis of the deposited data

How the results depend on the processing

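Over 14 alternatives, 0 of the 29 genes passed the threshold, and the smallest adjusted p of any was 0.0753, with median-of-ratios scaling. Genes at an unadjusted p under 0.05 numbered 4 in the reported fit, 9 with median-of-ratios scaling and 7 without haemoglobin, and 2 to 9 over the alternatives. The share of all tested genes at that limma threshold was 13.4% in the reported fit. It was not computed for the alternatives, so whether the 29 genes moved more than other genes cannot be said. Of 402 recomputed fold changes, 386 kept their sign and 16 changed it, in 8 genes. When 1 library was left out, the log2 fold change ran from −0.245 to 0.258 for Mvd (above 0 without Onway 3 and without Control 5), from −0.0108 to 0.294 for Ebp (below 0 without Onway 2), from −0.462 to 0.0364 for Sc5d, from −0.208 to 0.0549 for Fasn, from −0.267 to 0.0407 for Elovl5 and from −0.0299 to 0.780 for Scd1 (each of these changing sign without Onway 3). It ran from −0.0340 to 0.102 for Srebf2 (below 0 without Onway 1 and without Onway 2) and from −0.114 to 0.119 for Srebf1 (above 0 without Onway 3 and without Control 4). Without Control 4 and Onway 3 together it was 0.202 for Mvd, 0.0353 for Sc5d, 0.0779 for Fasn and 0.210 for Srebf1, and over Ensembl transcripts alone 0.103 for Srebf1. Without Onway 3 the log2 fold changes of 19 of the 29 genes moved by over 1.5 times or changed sign, without Control 5 those of 15, and without 1 of the other libraries those of 7 to 10. The median of all tested genes itself was 0.11 without Onway 3 and 0.14 without both. The sterol median ran from −0.46 to −0.17 and the fatty acid median from −0.22 to 0.03, above 0 without Onway 3 (0.01) and without both (0.03). The count of the 29 genes lower in Onway without overlap ran from 8 to 16 when 1 library was left out. The share of all tested genes ran from 12.8% to 22.2% there, against 11.5% with all libraries. The cause of these shifts was not tested. No paired analysis was possible because the groups share no replicate number. How far depth limits the low genes cannot be given.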
